A study of Mus musculus with 8 samples.

Results

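The genes of STAT factors and JAK kinases in the RNA of mouse regulatory T (Treg) cells are described here. They are the 9 genes of a fixed list, Stat2, Stat3, Stat4, Stat5a, Stat5b, Stat6, Jak1, Jak2 and Jak3, found by symbol among the 52459 genes of the expression table. The study asked what the loss of STIM1 and STIM2, which sense calcium in the endoplasmic reticulum and open calcium channels of the plasma membrane, does to Treg cells. RNA of CD4+CD25hi cells of spleen and lymph nodes was sequenced from 4 groups with 2 libraries each. All cells came from female C57BL/6 mice with floxed Stim1 and Stim2 alleles that were heterozygous for Foxp3-YFPcre, a Cre recombinase and fluorescent protein driven by the Foxp3 promoter on the X chromosome. The WT libraries hold YFP-negative cells, which carry the floxed alleles but did not express Cre, and the libraries labelled Stim1/2-deficient hold YFP-positive cells of the same kind of mouse. Genotype is therefore bound to expression of the Foxp3-YFPcre allele. Stimulated cells were kept for 16 h on plates coated with anti-CD3 and anti-CD28 at 1 µg/ml, and whether unstimulated cells were also kept in culture is not given in the sources used here. Each library is a pool of several mice, and the age of the mice is not given in the sources used here. Values of single libraries are given in the order of their replicate numbers, 3 and 4 for unstimulated WT and 1 and 2 for the other groups. The libraries labelled Stim1/2-deficient are called labelled libraries below.

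JAK kinases are bound to the inner tails of cytokine receptors, where they are switched on when a cytokine joins the receptor chains, and they phosphorylate STAT proteins that then enter the nucleus and bind DNA. JAK1 and JAK3 serve the receptors that share the common gamma chain, such as that of interleukin-2, which signals through STAT5 and is needed to keep Treg cells alive and expressing Foxp3. JAK2 serves the receptors of interleukin-12 and interferon gamma among others.

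The authors deposited reads per gene after division by a library's size factor, here called normalized counts. Reads on genes numbered 11851853 to 16306540 per library, and 1 read was worth 0.759 to 1.48 normalized counts. All 9 genes passed the filter on low values, an average over the libraries of 10 normalized counts or more, which left 15419 genes. A gene had 250 to 19032 reads in a library, which corresponds to a counting error of 6.32% to 0.725%. P-values measure only the spread between these pools. Stim1 had 1139 and 1377 normalized counts in unstimulated WT, 1538 and 1868 in unstimulated labelled, 645 and 673 in stimulated WT and 552 and 642 in stimulated labelled libraries. Neither Stim1 nor Stim2 was called between genotypes in either state, with adjusted p of 0.236 to 0.827 (limma), and a count over a whole gene holds the reads of undeleted exons too. The labels were thus not checked by these counts. Foxp3 had 10001 and 8159 against 4947 and 4258 normalized counts in unstimulated cells, a log2 difference of -0.98 (standard error, SE, 0.26, limma adjusted p = 0.0591), and 8525 and 11918 against 4474 and 7253 in stimulated cells (-0.82, SE 0.26, limma adjusted p = 0.177). The 4 T cell markers summed to 12074 to 22176 normalized counts per library, and the 5 Treg cell markers were expressed in every library.

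The unstimulated labelled libraries stood apart from each other. The summed level of 10 macrophage and myeloid markers was 9998 normalized counts in labelled replicate 1 and 1651 in labelled replicate 2, against 445 and 467 in unstimulated WT libraries, where C1qa and C1qc had at most 3 reads. In stimulated cells it was 324 and 165 in WT and 443 and 361 in labelled libraries, with Mrc1, C1qa, C1qb and C1qc at 3 reads or fewer in all 4. The 9 B cell markers summed to 3469 and 811 in unstimulated labelled and to 326 and 329 in unstimulated WT libraries, and to 1033 and 215 in stimulated WT and 1595 and 347 in stimulated labelled libraries. The 5 Treg cell markers summed to 27186 and 38608 in unstimulated labelled libraries and to 79384 and 74925 in unstimulated WT libraries, and to 89427 and 107486 in stimulated WT and 62569 and 81394 in stimulated labelled libraries. The 5 CD8 T and NK cell genes summed to 428 and 374 in unstimulated WT and 908 and 288 in unstimulated labelled libraries. After stimulation they summed to 741 and 538 in WT and 1121 and 300 in labelled libraries. The sums of 5 neutrophil genes were 218 and 115 in unstimulated WT and 1009 and 445 in unstimulated labelled libraries. After stimulation those sums were 563 and 274 in WT and 837 and 127 in labelled libraries. Over all 8 libraries, 5 erythroid genes summed to 19.4 to 179. The mitochondrial ribosomal RNA mt-Rnr2 took 22.1% and 13.4% of the reads of the unstimulated labelled libraries, 19.6% and 20.1% in unstimulated WT and 9.78% to 13.6% in stimulated libraries. The marker sums and mt-Rnr2 move with the values of Stat3, Stat5a, Stat5b and Jak2 in the unstimulated labelled libraries, and mt-Rnr2 also with stimulation, and their part in those values was not tested. In bulk RNA, fewer cells of a type and less RNA per cell cannot be told apart.

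The start regions of Stat2, Jak1 and Jak2 are shown because these are the genes of the family that passed the test in a comparison below. The sequences are the 250 bases before the RefSeq start of each gene on its own strand, from the RefSeq promoter table of build GRCm38.p6. They lie at chr10:128270248-128270497 on the plus strand for Stat2, at chr4:101265224-101265473 on the minus strand for Jak1 and at chr19:29251553-29251802 on the plus strand for Jak2. Capitals mark matches to the core of an interferon-stimulated response element, which is GAAA, any 2 bases and GAAA again, or to GGAAA, the core of an NFAT site, on either strand.
Stat2: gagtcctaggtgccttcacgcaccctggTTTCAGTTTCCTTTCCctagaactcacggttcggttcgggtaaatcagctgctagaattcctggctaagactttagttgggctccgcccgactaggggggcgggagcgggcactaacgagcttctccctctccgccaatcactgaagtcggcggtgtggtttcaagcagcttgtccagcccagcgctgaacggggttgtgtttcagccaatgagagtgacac
Jak1: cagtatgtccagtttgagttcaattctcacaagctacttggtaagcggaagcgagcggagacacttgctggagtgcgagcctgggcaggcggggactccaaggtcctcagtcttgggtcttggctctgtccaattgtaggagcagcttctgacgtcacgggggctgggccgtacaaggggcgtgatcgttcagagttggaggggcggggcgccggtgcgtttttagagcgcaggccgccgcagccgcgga
Jak2: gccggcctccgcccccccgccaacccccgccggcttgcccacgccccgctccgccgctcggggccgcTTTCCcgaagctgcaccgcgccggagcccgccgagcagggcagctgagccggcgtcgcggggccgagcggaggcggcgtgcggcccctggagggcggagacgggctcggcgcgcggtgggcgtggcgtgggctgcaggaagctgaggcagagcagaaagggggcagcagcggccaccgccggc
In the Stat2 sequence, the capitals begin with an interferon-stimulated response element core on the opposite strand at -222 from the start, and this match overlaps the first of 2 GGAAA matches on the same strand. Jak1 held no match to either motif in this stretch, and Jak2 held 1 GGAAA match at -183.

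Promoter windows of 300 bases, 250 before to 50 after a start, were found for 9 of 9 genes, with 12 windows in all. The palindromic core TTCNNNGAA of a STAT site was found in 0 of the 12 windows, and 8.3% of all 32851 promoters of the table hold it. GGAAA on either strand was found in 8 of the 12 windows, which belong to 7 genes, against 61.3% of all promoters. The interferon-stimulated response element core was found on either strand in 2 windows, that of Stat2 and the second of Stat4 at -97, against 3.44% of all promoters, and this motif was chosen after the sequences were seen. A match is a description of the letters and not evidence of binding.

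The 9 genes lie on 6 chromosomes of assembly NCBIM37, where coordinates were taken from GENCODE M1 by symbol. Stat5b (chr11:100642045-100712038, minus strand), Stat5a (chr11:100720665-100746483, plus strand) and Stat3 (chr11:100746412-100800854, minus strand) are neighbours on chromosome 11. Stat5a and Stat3 overlap by 72 bases at their 3' ends, and 8626 bases separate Stat5b from Stat5a. Stat6 (chr10:127080042-127098013, plus strand) and Stat2 (chr10:127707629-127729905, plus strand) lie on chromosome 10 and Stat4 (chr1:52043992-52164032, plus strand) on chromosome 1. The kinase genes are dispersed, with Jak1 at chr4:100824972-100937887 on the minus strand, Jak2 at chr19:29326318-29387570 on the plus strand and Jak3 at chr8:74200195-74214474 on the plus strand. Stat5a and Stat5b are close paralogs whose reads could in part be shared, and 1741 bases of Jak3 overlap Insl3 and Gm9933. Whether reads were counted by strand is not given in the sources used here, so that reads in such overlaps cannot be assigned.

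Between genes, levels were compared as normalized counts per kilobase of exon. In unstimulated WT cells, the kinase genes Jak2 and Jak1 stood highest, at 2728 ± 188 and 2259 ± 139 normalized counts per kilobase (SD, n = 2). Stat3 followed at 929, Stat5a at 696, Stat5b at 436, Stat4 at 388, Stat6 at 292 and Stat2 at 235 normalized counts per kilobase. Jak3, the kinase of the common gamma chain, stood lowest at 79.5 ± 13.4 (SD, n = 2). Its level depends on how reads in the 1741 bases that overlap Insl3 and Gm9933 were counted, which is not known. No neighbours in this order overlapped between their 2 libraries. In unstimulated labelled cells the order began with Jak1 at 2799 and Jak2 at 1574 normalized counts per kilobase and ended again with Jak3 at 73.0, but the first 5 pairs of neighbours overlapped. In stimulated WT cells, Jak1 stood at 871, Jak2 at 613, Stat3 at 497, Stat2 at 322 and Jak3 at 81.9 normalized counts per kilobase. The corresponding levels of stimulated labelled cells were 1091, 990.1, 674, 583 and 107. By its mean, Stat2 was the eighth of 9 genes in both unstimulated groups and the fourth in both stimulated groups, but the fourth place was not resolved. In stimulated WT cells the ranges of Stat2, Stat5a, Stat5b, Stat6 and Stat4 overlapped from each to the next, as did Jak2 and Stat3, and in stimulated labelled cells Stat2 overlapped Stat3, Jak1 overlapped Jak2 and Stat5b overlapped Stat5a.

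Of the kinase genes, Jak1 serves the common gamma chain receptors among others. It had 17037 and 15611 normalized counts in unstimulated WT and 15038 and 25418 in unstimulated labelled libraries. After stimulation it had 6076 and 6507 in WT and 7502 and 8273 in labelled libraries. Every stimulated library lay below every unstimulated library. Jak2 had 13056 and 14392 normalized counts in unstimulated WT, 4056 and 11778 in unstimulated labelled, 3656 and 2512 in stimulated WT and 5640 and 4321 in stimulated labelled libraries. Both unstimulated WT libraries lay above the other 6, and labelled replicate 1 lay among the stimulated libraries. Jak3 had 477 and 375 normalized counts in unstimulated WT, 449 and 334 in unstimulated labelled, 399 and 478 in stimulated WT and 486 and 660 in stimulated labelled libraries. Its 4 groups spanned similar ranges, with the stimulated labelled libraries highest. Of the summed per-kilobase levels of the 3 kinases, Jak2 made up 51.5% and 56.2% in unstimulated WT, 27.1% and 39.5% in unstimulated labelled, 44.3% and 33.5% in stimulated WT and 49.8% and 40.4% in stimulated labelled libraries.

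Of the STAT genes downstream of interleukin-2, Stat5a had 4771 and 5164 normalized counts in unstimulated WT, 1863 and 6809 in unstimulated labelled, 2125 and 2304 in stimulated WT and 2079 and 1684 in stimulated labelled libraries. Stat5b had 2374 and 2451 in unstimulated WT, 1524 and 4236 in unstimulated labelled, 1620 and 1708 in stimulated WT and 1350 and 1661 in stimulated labelled libraries. For both genes, the unstimulated labelled libraries lay on either side of the WT pair, replicate 1 below and replicate 2 above. The per-kilobase ratio of Stat5a to Stat5b was 1.56 and 1.64 in unstimulated WT libraries and between 0.788 and 1.25 in the other 6. Stat3, the factor of interleukin-6, interleukin-10 and interleukin-21, had 8973 and 8730 normalized counts in unstimulated WT, 4140 and 10843 in unstimulated labelled, 4569 and 4897 in stimulated WT and 5301 and 7536 in stimulated labelled libraries. It showed the same crossing of the unstimulated labelled pair around the WT pair.

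Stat2, which joins IRF9 in the complex that answers type I interferon, had 1039 and 1033 normalized counts in unstimulated WT, 1277 and 1345 in unstimulated labelled, 1312 and 1525 in stimulated WT and 2227 and 2910 in stimulated labelled libraries. The stimulated labelled libraries lay above all others. Stat4, the factor of interleukin-12, had 1119 and 1324 normalized counts in unstimulated WT, 1409 and 1338 in unstimulated labelled, 971 and 673 in stimulated WT and 1013 and 950 in stimulated labelled libraries. All 4 stimulated libraries lay below all 4 unstimulated libraries. Stat6, the factor of interleukin-4, had 1254 and 1318 normalized counts in unstimulated WT, 1412 and 1357 in unstimulated labelled, 1347 and 1206 in stimulated WT and 1665 and 1928 in stimulated labelled libraries. Again the stimulated labelled libraries were the highest.

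**Figure D1:**
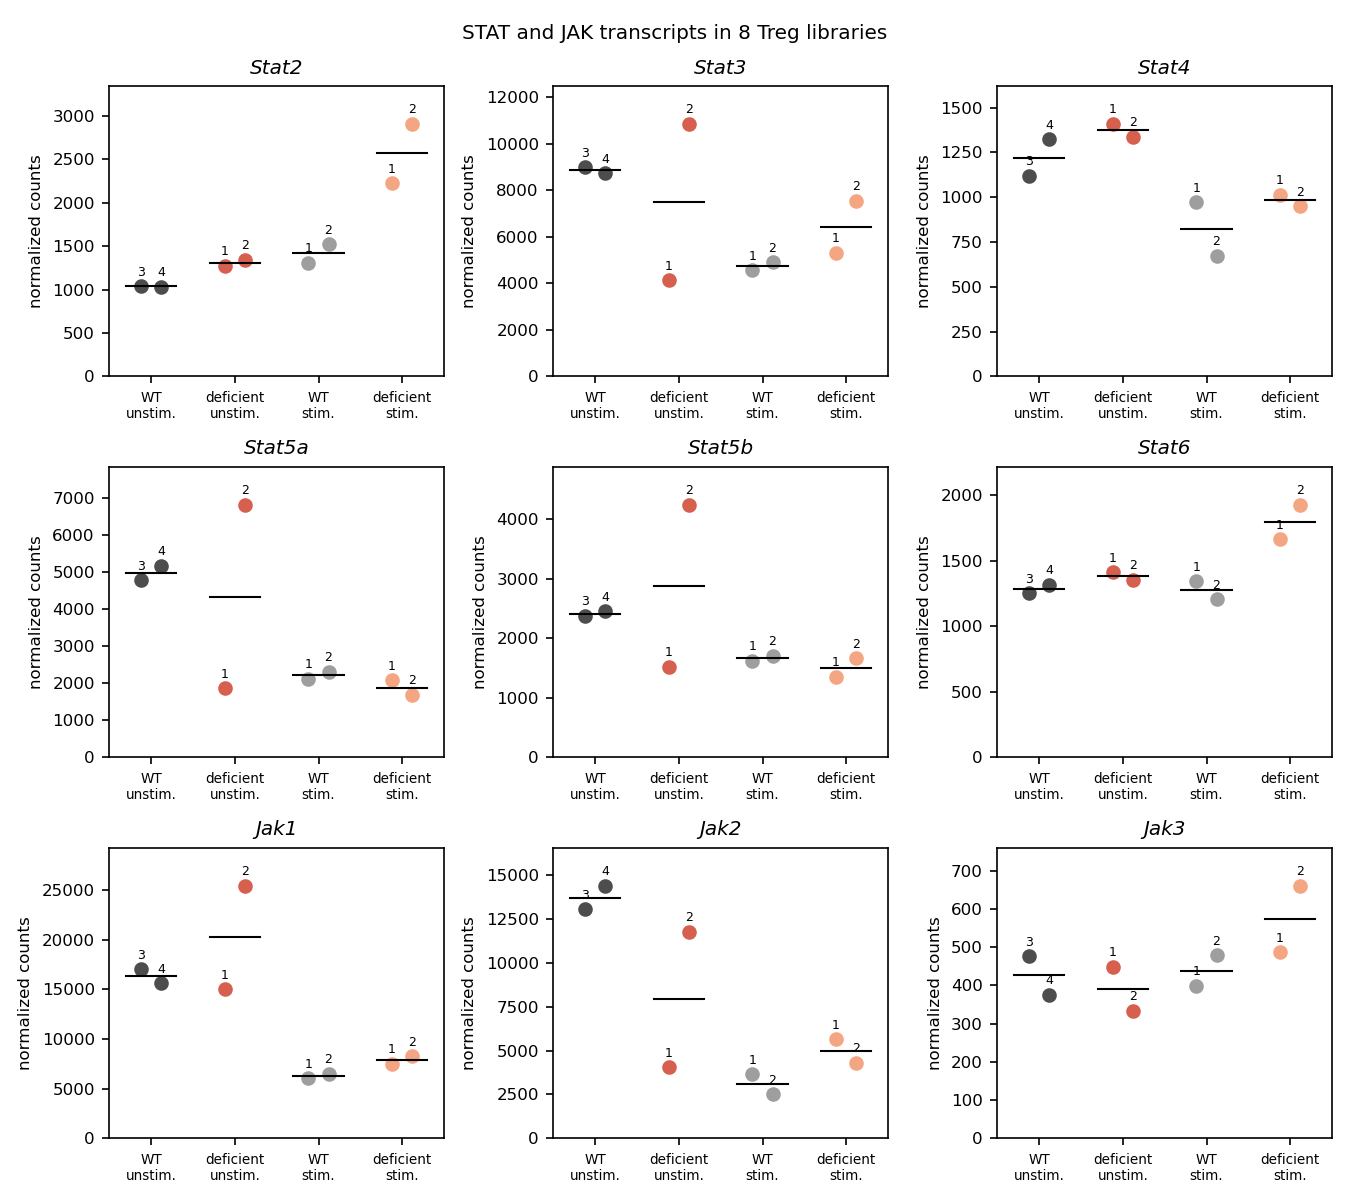
Normalized counts (vertical axes, each from 0) of the 9 genes in the 4 groups; points are libraries with their replicate numbers, lines are means of 2 libraries, and deficient stands for libraries labelled Stim1/2-deficient. The unstimulated labelled libraries are far apart for Stat3, Stat5a, Stat5b and Jak2, and the stimulated labelled libraries are the highest for Stat2, at 2227 and 2910.

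The spread between replicates of these genes was uneven over the groups. In unstimulated labelled cells, the higher library exceeded the lower 3.65-fold for Stat5a, 2.90-fold for Jak2, 2.78-fold for Stat5b and 2.62-fold for Stat3, and replicate 2 was the higher for each. These were 4 of 9 genes with more than 2-fold between replicates, whereas 18.7% of all tested genes and 9.60% of the 2635 genes averaging 1000 normalized counts or more differed by as much in that group. In the other 3 groups, 0 of the 9 genes differed by more than 2-fold between replicates. Stat2, Stat4 and Stat6 differed little in the unstimulated labelled group, by 0.07, 0.07 and 0.06 on the log2 scale, below the median of 0.46 of all tested genes.

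**Figure D2:**
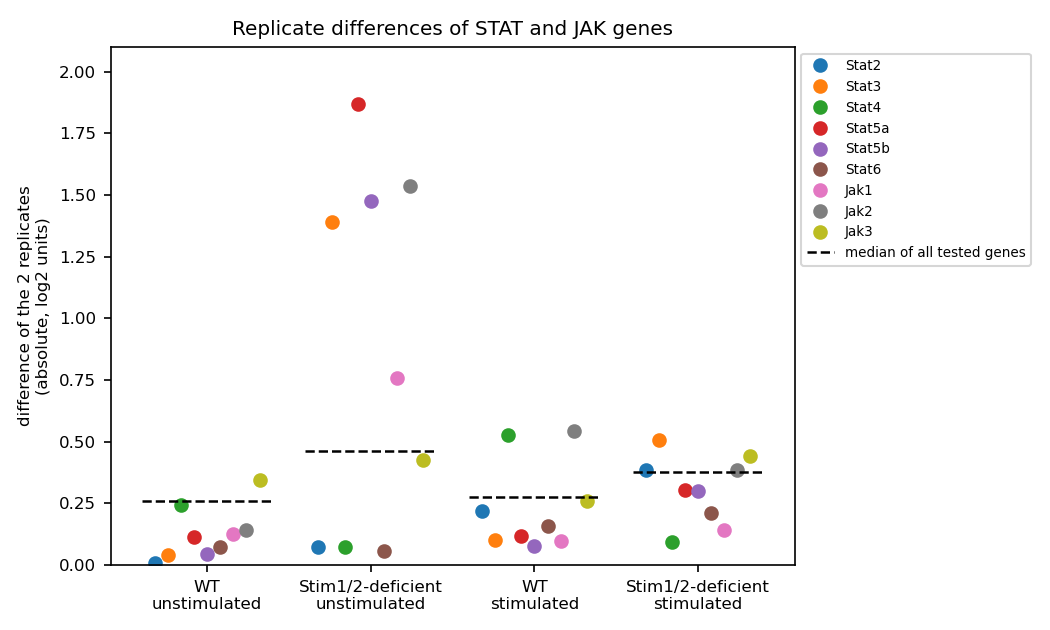
Absolute log2 difference between the 2 replicates of each group (vertical axis) for the 9 genes (coloured points), with the median of all tested genes as a dashed line. Stat5a, Jak2, Stat5b and Stat3 lie above 1 log2 unit in the unstimulated labelled group only, where the median of all tested genes is 0.46.

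The first comparison was that of genotypes in unstimulated cells, which asks how resting Treg cells labelled Stim1/2-deficient differ from WT cells. Genes were called with limma when the adjusted p was under 0.05 and the change exceeded 1.5-fold. Of the 9 genes, 0 were called, against 1.38% of all tested genes called higher and 3.35% called lower in labelled libraries, and edgeR and DESeq2 also called 0. At an unadjusted p under 0.05 there was 1 gene, Jak2, while 22.0% of all tested genes had such a p. Its log2 difference was -0.99 (SE 0.40, 95% interval -1.88 to -0.09, limma adjusted p = 0.186). For Jak2 the 2 labelled libraries had less than either WT library, while Stat2, Stat4 and Stat6 were higher in both. Over all tested genes, the groups did not overlap for 26.5% with labelled libraries higher and for 27.1% with labelled libraries lower, so that 3 and 1 of 9 are near the background. Stat2 had a log2 difference of 0.34 (SE 0.19, 95% interval -0.09 to 0.77, limma adjusted p = 0.337), Stat4 of 0.17 and Stat6 of 0.11. The differences of Stat3, at -0.40 (SE 0.36), Stat5a, at -0.48 (SE 0.45), Stat5b, at 0.07 (SE 0.37), and Jak1, at 0.26 (SE 0.23), were within the spread between replicates, with limma adjusted p of 0.555 to 0.933. Jak3 stood at -0.13, which became 0.03 when libraries were rescaled to equal upper quartiles. The median of the 9 genes was 0.07 and that of all tested genes was -0.01.

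These values depended on which labelled library was used. Without labelled replicate 1, limma called Jak1 higher, at a log2 difference of 0.64 (SE 0.14, adjusted p = 0.0382), and Stat5b higher, at 0.81 (SE 0.17, adjusted p = 0.0337). Without labelled replicate 2 it called Jak2 lower at -1.76 (SE 0.24, adjusted p = 0.00595), Stat5a lower at -1.41 (SE 0.17, adjusted p = 0.00457) and Stat3 lower at -1.10 (SE 0.20, adjusted p = 0.0163). The sign of Stat3, Stat5a, Stat5b, Jak1 and Jak3 changed between these fits. Jak2 was -0.22 without labelled replicate 1. With 1 library left in a group, that library is assumed to vary like those of the other groups, and 5.05% and 8.42% of all tested genes were called in the respective fits.

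**Figure D3:**
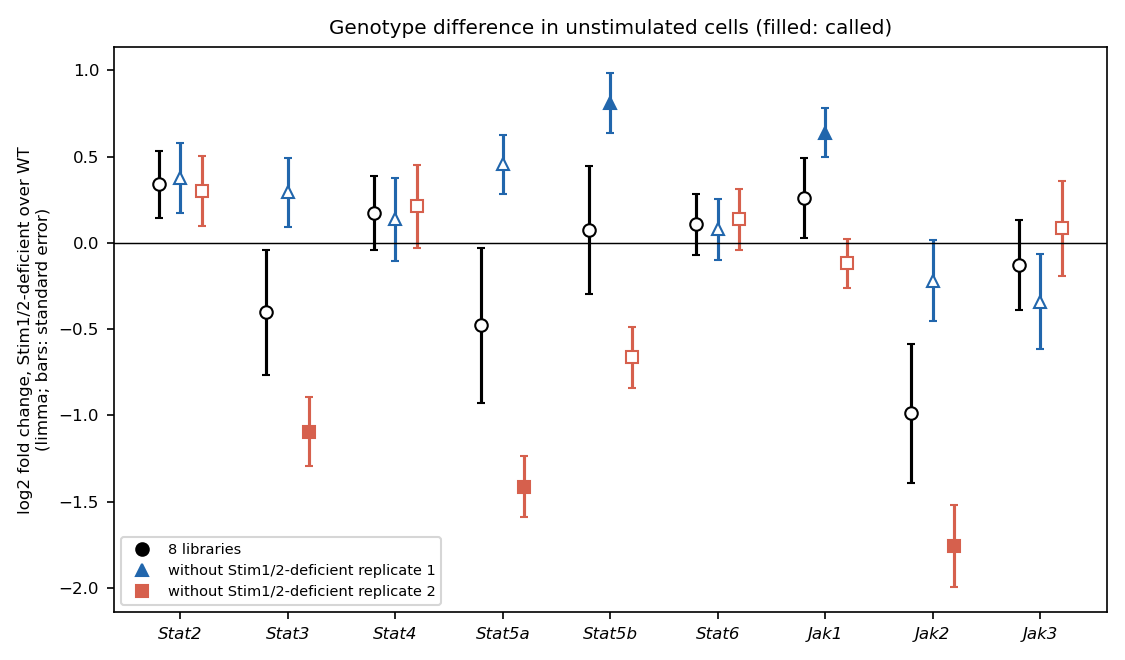
Log2 difference of labelled over WT libraries in unstimulated cells (vertical axis, bars are standard errors) for the 9 genes with all 8 libraries, without labelled replicate 1 and without labelled replicate 2; filled symbols are called. Stat5b is called at 0.81 without replicate 1 and Stat5a at -1.41 without replicate 2, and 0 of the 9 are called with all libraries.

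The second comparison was that of genotypes after stimulation. Stat2 was higher in labelled libraries, with a log2 difference of 0.85 (SE 0.19, 95% interval 0.42 to 1.28), and did not pass the threshold (limma adjusted p = 0.0875). Of the 9 genes, 0 were called, against 0.162% of all tested genes called higher and 0.110% called lower. At an unadjusted p under 0.05 there were 2 genes, Stat2 and Stat6, and 13.7% of all tested genes had such a p. edgeR called 0 of the 9 (Stat2 adjusted p = 0.103), and DESeq2 on the recovered reads called 1, Stat2, at 0.86 (adjusted p = 0.00971). Stat6 had a log2 difference of 0.49 (SE 0.18, 95% interval 0.10 to 0.88, limma adjusted p = 0.244). Jak2 had a difference of 0.70 (SE 0.40, 95% interval -0.19 to 1.60, limma adjusted p = 0.490).

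For 6 of the 9 genes, Stat2, Stat3, Stat6, Jak1, Jak2 and Jak3, both stimulated labelled libraries were higher than both WT libraries, and over all tested genes this held for 24.3%. Stat5a was the 1 gene with both labelled libraries lower, which held for 23.1% of all tested genes, and its log2 difference was -0.24 (SE 0.45). Differences of the remaining genes were 0.42 for Stat3, 0.37 for Jak3, 0.33 for Jak1, 0.28 for Stat4 and -0.15 for Stat5b, with limma adjusted p of 0.583 to 0.904. The median of the 9 genes was 0.37, against 0.02 over all tested genes. Without unstimulated labelled replicate 1 or 2, the difference of Stat2 was the same with an SE of 0.17, because no stimulated library was left out. It was 1.04 without stimulated labelled replicate 1 and 0.65 without stimulated labelled replicate 2.

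Stimulation with anti-CD3 and anti-CD28 was compared within each genotype. All unstimulated libraries were sequenced in one lane and all stimulated libraries in another, so that stimulation cannot be told apart from lane. In WT cells, Jak1 fell by 1.37 on the log2 scale (SE 0.23, 95% interval -1.89 to -0.86, limma adjusted p = 0.00357) and Jak2 fell by 2.18 (SE 0.40, 95% interval -3.07 to -1.28, limma adjusted p = 0.00518). These were 2 of 9 genes called lower and 0 of 9 called higher, against 13.1% and 10.2% of all tested genes. Both calls were made by edgeR as well, and DESeq2 added Stat3 and Stat5a. The call of Jak2 was lost without unstimulated WT replicate 4, at -2.11 (limma adjusted p = 0.0543), and without stimulated WT replicate 2, at -1.91 (limma adjusted p = 0.0600).

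Of the other genes in WT cells, Stat5a had a log2 difference of -1.17 (SE 0.45, limma adjusted p = 0.0858), Stat3 of -0.90 (SE 0.36, limma adjusted p = 0.0971) and Stat4 of -0.59 (SE 0.22, limma adjusted p = 0.0732). Both stimulated WT libraries lay below both unstimulated WT libraries for 6 of the 9 genes, Jak1, Jak2, Stat3, Stat4, Stat5a and Stat5b. They lay above both for 1, Stat2. The share of all tested genes for which this held is not given here, so that these counts have no background to be read against. Stat5b stood at -0.54 and Stat2 at 0.45 (SE 0.19, limma adjusted p = 0.117). Stat2 was called with equal totals, at 0.97 (limma adjusted p = 0.00454), where the median of all tested genes was 0.52, and with quantile normalization, at 0.67 (limma adjusted p = 0.0226). Jak3 at 0.05 and Stat6 at -0.01 differed by less than the spread between replicates, and the sign of Stat6 turned with other scalings. Without either unstimulated labelled library, the differences of Stat3 and Stat5a in WT cells were the same, because no WT library was left out. Their SE became 0.16 and 0.14, since 1 spread is fitted over the 4 groups.

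In labelled cells, Jak1 fell by 1.31 on the log2 scale after stimulation (SE 0.23, 95% interval -1.83 to -0.79, limma adjusted p = 0.00378) and Stat2 rose by 0.96 (SE 0.19, 95% interval 0.53 to 1.39, limma adjusted p = 0.00652). They were 1 of 9 genes called lower and 1 called higher, against 12.0% and 13.0% of all tested genes. Jak2 had a difference of -0.49 (SE 0.40, 95% interval -1.38 to 0.41, limma adjusted p = 0.399). Stat5a stood at -0.93 (SE 0.45, limma adjusted p = 0.154), Stat5b at -0.76 (SE 0.37, limma adjusted p = 0.156), Jak3 at 0.55 (SE 0.26, limma adjusted p = 0.146), Stat4 at -0.48 (SE 0.22, limma adjusted p = 0.125) and Stat6 at 0.37 (SE 0.18, limma adjusted p = 0.148). Stat3 at -0.08 had groups that overlapped, and its sign turned with rescaling to equal totals and with quantile normalization. Without unstimulated labelled replicate 1, 6 of the 9 genes were called, against 27.4% of all tested genes in that fit, with Jak2 at -1.25, Stat3 at -0.78, Stat5a at -1.86 and Stat5b at -1.50 added to Jak1 and Stat2. Without unstimulated labelled replicate 2 only Jak1 and Stat2 were called. The call of Stat2 does not hold at a threshold of 2-fold.

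The scaling of libraries bears on the stimulation contrasts. Every stimulated library had a lower normalized total than every unstimulated library, and rescaling to equal totals moved the median log2 difference of all tested genes by 0.51 in WT and 0.38 in labelled cells. With it, the share of called genes that were higher went from 44.0% to 81.4% in WT and from 51.8% to 77.9% in labelled cells. Equal totals multiply each library by a factor of its own, so that every gene moves with the median of all tested genes. The differences became -0.85 and -0.92 for Jak1 in WT and labelled cells and -1.66 for Jak2 in WT cells. That of Stat2 in labelled cells became 1.35, and all 4 remained called. With quantile normalization they remained called with smaller differences for the kinases, -0.77 and -0.78 for Jak1 in WT and labelled cells and -1.65 for Jak2 in WT cells. In unstimulated cells, equal totals and equal upper quartiles moved the median of the genotype contrast by 0.12 and 0.16 and the share of called genes that were higher from 29.2% to 40.6% and 46.3%.

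**Figure D4:**
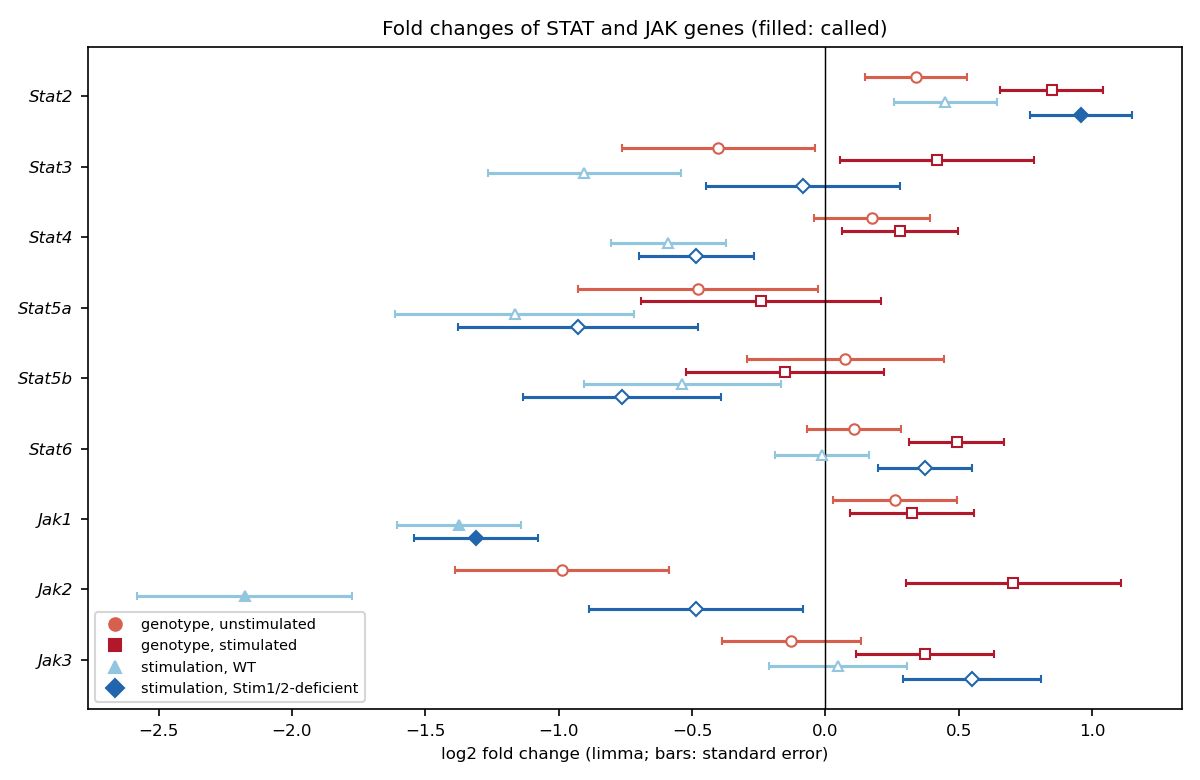
Log2 fold changes (horizontal axis) of the 9 genes in the 4 contrasts from limma, with bars of 1 standard error; filled symbols are called at an adjusted p under 0.05 and 1.5-fold. Jak1 is filled in both stimulation contrasts, Jak2 in WT cells at -2.18 and Stat2 in labelled cells at 0.96; under other scalings the near-zero values of Stat6 (WT) and Stat3 (labelled) in the stimulation contrasts and of Jak3 in unstimulated cells change sign.

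Whether a genotype difference changed with stimulation was tested as the interaction. limma, edgeR and DESeq2 called 0 of the 9 genes, and limma called 0 of all 15419 tested genes, 0%. At an unadjusted p under 0.05 there was 1 of the 9, Jak2, at 1.69 (SE 0.57, 95% interval 0.43 to 2.96, limma adjusted p = 0.556), while 8.15% of all tested genes had such a p. Jak2 was lower in both labelled libraries before and higher in both after stimulation. Without unstimulated labelled replicate 2 its interaction was 2.46 (SE 0.31, limma adjusted p = 0.0130), and Stat3, at 1.51, and Stat5a, at 1.17, were called too, against 1.27% of all tested genes in that fit. Without unstimulated labelled replicate 1 the interaction of Jak2 was 0.92 (limma adjusted p = 0.434). Of the other genes, Stat3 had 0.82 (SE 0.51), Stat2 0.51 (SE 0.27), Jak3 0.50 (SE 0.37), Stat6 0.38 (SE 0.25) and Stat5a 0.24 (SE 0.63). Stat4 at 0.10, Jak1 at 0.06 and Stat5b at -0.23 were nearest to 0, and the sign of Stat4 and Jak1 turned with other scalings and that of Stat5a with edgeR and DESeq2. The median of the 9 genes was 0.38, against 0.05 of all tested genes.

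Other genes of the pathway were counted on lists of cytokines, receptors, inhibitors, partners and targets. Of 13 cytokine genes, 9 were tested, and Il6, Il7, Il12a and Il27 were below the filter. Il10, an anti-inflammatory cytokine of Treg cells that signals through STAT3, was the 1 cytokine called between genotypes. It was called lower, as were 3.35% of all tested genes in unstimulated and 0.110% in stimulated cells. It fell from 885 and 923 to 50.3 and 56.1 normalized counts in unstimulated cells, a log2 difference of -4.06, and from 779 and 870 to 253 and 104 in stimulated cells, -2.34. After stimulation, 5 cytokine genes were called higher in WT and 6 in labelled cells, against 10.2% and 13.0% of all tested genes, and 0 were called lower. The WT count was 3 without unstimulated replicate 4 or stimulated replicate 1. Il2 rose from 17.3 and 17.7 to 1470 and 771 normalized counts in WT cells and from 19.9 and 4.01 to 2248 and 266 in labelled cells. Il9 was called higher in WT cells, with 2 reads in 1 of the unstimulated libraries and none in the other, and stood at 182 and 53.9 normalized counts after stimulation. Lif rose from 36.7 and 76.1 to 1193 and 736 in labelled cells.

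Of 22 receptor genes, 21 were tested and 0 were called between genotypes in either state (limma). In WT cells, 4 receptor genes were called higher and 7 lower after stimulation, against 10.2% and 13.1% of all tested genes, and in labelled cells 5 and 4, against 13.0% and 12.0%. The 7 lower in WT cells were 3 to 4 when a WT library was left out and 11 without either unstimulated labelled library, and in those fits 6.30% to 8.18% and 27.7% of all tested genes were called in either direction. The 4 lower in labelled cells were 2 without stimulated labelled replicate 2 and 7 without unstimulated labelled replicate 1. Between genotypes, whether any receptor gene was called depended on the library left out, as did the share of all tested genes called. Il12rb1, the receptor chain shared by interleukin-12 and interleukin-23, rose by 3.17 on the log2 scale in WT and by 3.68 in labelled cells, and Il12rb2, the second chain for interleukin-12, rose by 2.22 and 3.06. Il9r had 96.5 and 16.0 normalized counts in unstimulated and 6.35 and 0 in stimulated labelled cells and was called lower. Of the 19 inhibitors, 0 were called between genotypes (limma). After stimulation 5 were called higher and 3 lower in WT cells, against 10.2% and 13.1% of all tested genes. In labelled cells 5 were higher and 2 lower, against 13.0% and 12.0%. The WT counts were 2 higher and 1 to 2 lower when a WT library was left out, and the labelled counts were 4 to 7 higher and 1 to 2 lower over all libraries left out. Socs1, which blocks JAK kinases, rose by 3.07 in WT and 3.23 in labelled cells, and Socs2, of the same family, by 2.37 and 3.27 on the log2 scale. Of the 9 partners, which include coactivators and import factors, 0 were called between genotypes (limma). Crebbp, a histone acetyltransferase, fell by 1.09 in WT and 1.03 in labelled cells, Ncoa1, a coactivator, fell by 1.12 in WT cells, and Nmi, a STAT-binding protein, rose by 0.88 in labelled cells. In all, 3 partners were called lower in WT cells, against 13.1% of all tested genes. In labelled cells 3 were lower and 1 higher, against 12.0% and 13.0%. Fewer were lower in WT cells when a WT library was left out. In labelled cells fewer were lower without either stimulated labelled library and without unstimulated labelled replicate 2.

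Of 17 targets of STAT5 and STAT3, 2 were called higher and 2 lower in unstimulated labelled cells, against 1.38% and 3.35% of all tested genes. These calls were lost without either unstimulated WT library. The survival gene Bcl2 rose by 1.09 on the log2 scale, from 3345 and 3254 to 7570 and 6538 normalized counts, and the cyclin gene Ccnd3 rose by 1.42, whereas Bcl2l1, another survival gene, fell by 1.71, from 851 and 833 to 197 and 333. After stimulation, Bcl2 was the 1 target on this list called between genotypes, at 1.11 higher in labelled cells. Of all tested genes, 0.162% were called higher there. Stimulation itself had 6 targets called higher and 5 lower in WT cells, against 10.2% and 13.1% of all tested genes. In labelled cells 8 were higher and 4 lower, against 13.0% and 12.0%. Fewer targets were called higher in WT cells when a WT library was left out. Among the called targets, Bcl6, a repressor, fell by 3.54 in WT cells. Il2ra, the alpha chain of the interleukin-2 receptor, rose by 2.62 in labelled cells. Of 10 targets of STAT2, 0 were called in unstimulated cells (limma), with a median log2 difference of 0.44. In stimulated cells 2 were called higher in labelled libraries, against 0.162% of all tested genes. Ifit1 went from 106 and 109 to 536 and 845 normalized counts (2.63). Ifit3 went from 12.5 and 12.2 to 139 and 209 (3.69), and both are interferon-induced genes. The median of the 10 was 1.31, against 0.02 of all tested genes. The count was 0 without any WT library or stimulated labelled replicate 2, 4 without stimulated labelled replicate 1 and 5 without either unstimulated labelled library. After stimulation, 6 STAT2 targets were called lower and 1 higher in WT cells, against 13.1% and 10.2% of all tested genes. There Mx1 stood at -3.41 and Rsad2 at -2.79 on the log2 scale. In labelled cells 1 was lower (Rsad2) and 1 higher (Usp18, by 1.12), against 12.0% and 13.0%. The 6 lower in WT cells were 1 whenever a WT library was left out.

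Of 10 targets of STAT4 and STAT6, 2 were called lower in unstimulated labelled cells, against 3.35% of all tested genes. The chemokine receptor Ccr8 stood at -3.49, from 605 and 504 to 35.7 and 65.4 normalized counts. Ccr4, another chemokine receptor, stood at -2.44, from 2579 and 1954 to 633 and 270. In stimulated cells, 0 were called between genotypes (limma). The 2 lower in unstimulated cells were 0 to 1 without an unstimulated WT library and 4 to 5 without a labelled library, and in stimulated cells 3 were lower without any 1 of 3 labelled libraries, all but stimulated replicate 2. After stimulation 2 were called higher in WT and 6 in labelled cells, against 10.2% and 13.0% of all tested genes, and the 6 were 3 without stimulated labelled replicate 1 and 4 without unstimulated labelled replicate 2. Tbx21, the T-bet factor, rose by 3.55 in WT and 4.18 in labelled cells. In the interaction, 0 genes of any of the 7 lists were called (limma), and without unstimulated labelled replicate 2 up to 3 genes of a list were called. Of the 10 calls between genotypes named here, 9 were lost when 1 of the 8 libraries was left out, most often a WT library, and the call of Il10 in unstimulated cells was kept in all 8 fits. Of the 25 named calls for stimulation, 7 were lost in at least 1 such fit, those of Il9, Crebbp and Rsad2 in WT and of Il9r, Nmi, Rsad2 and Usp18 in labelled cells.

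The genes whose pattern was most like that of each member over the 8 libraries were sought among 9138 genes averaging 100 normalized counts or more. The libraries share groups and lanes, and the correlations are given as a description. Stat2 was most like Oas1b (Pearson's r = 0.987) and Parp14 (0.985). Stat5a was most like Tnfrsf10b and Kpna1 (0.988 each), Stat5b most like Tpp2 (0.983) and Taf4b (0.975), and the r between Stat5a and Stat5b was 0.921. For Stat3 the nearest genes were Gpkow (0.991) and Insig1 (0.989), for Stat4 Rbms2 (0.983) and Cnr2 (0.961), and for Stat6 Xaf1 (0.974) and Ube2d1 (0.970). For the kinases they were Ankrd11 (0.996) and Zfand2a (0.995) for Jak1, Copb1 (0.989) and Crnkl1 (0.982) for Jak2, and Zscan29 (0.968) and Ikbkg (0.964) for Jak3.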

How the data were processed

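RNA of 8 Treg cell libraries was used, in the 4 groups of genotype and stimulation that the labels give. The signal values deposited by the authors are reads per gene after division by a library's size factor. The methods name Bowtie, assembly NCBIM37, HTSeq, DESeq2 and a TruSeq RNA kit, whereas the submitters' processing notes name bcl2fastq 1.8.4, STAR 2.7, DESeq2 and mm10 and the labels a stranded kit. This was not resolved, and no annotation version is given in the sources used here. Division by the value of 1 read gave whole numbers for 100% of the values of 7 libraries and 99.9957% of 1 library (tolerance 0.0051 normalized counts).

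limma 3.58.1 (trend, 1 spread over the 4 groups, R 4.3.3) was fitted to log2 values after adding 1, for the 15419 genes averaging 10 normalized counts or more. Tests were 2-sided, adjusted by Benjamini-Hochberg in each contrast, with calls at an adjusted p under 0.05 and above 1.5-fold. The methods name DESeq2. It was run as an alternative (1.42.0), like edgeR 4.0.16 (quasi-likelihood), because the values are not counts. The scripts were tested on simulated data. Genes named are the 9 members, of each list the 3 called genes with the lowest adjusted p per genotype contrast and the 2 with the largest change per stimulation contrast, the 2 genes most like each member, checks of the labels and marker lists. Members and lists were chosen with earlier results of these data known. Some genes stand in 2 lists. Alternatives were other pseudocounts, filters, scalings, tools, thresholds, a replicate block and each library left out.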

Additional observations from a re-analysis of the deposited data

Results flagged for a closer look

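The genotype difference of Jak2 had opposite signs in the 2 states: both labelled libraries lay below both WT libraries in unstimulated cells and above both in stimulated cells. The interaction was 1.69 on the log2 scale (SE 0.57) and did not pass the threshold (limma adjusted p = 0.556, range over 20 alternatives 0.0130 to 0.999). The level of Jak2 in unstimulated labelled replicate 1, 4056 normalized counts against 11778 in replicate 2, goes with 9998 against 1651 normalized counts of macrophage and myeloid markers, whose part in it was not tested.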

How the results depend on the processing

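With 2 pools per group, differences within the spread of the unstimulated labelled pair could not be resolved. The counting error of a member in a library was at most 6.32%, and the part of depth in this limit was not tested. Of 954 values of single genes under an alternative, 882 kept direction and side of the threshold, 35 passed it in addition, 3 no longer passed and 34 changed sign. Rescaling to equal totals moved the median of the interaction by -0.13 and equal upper quartiles by -0.15 on the log2 scale. DESeq2 called 1 gene between genotypes in stimulated cells, and 4 for stimulation in each of WT and labelled cells. In WT cells limma on the 4 libraries of the contrast called 5. In labelled cells equal totals called 4 and a 2-fold threshold 1. Replicate numbers of stimulated libraries are not stated to mark a shared source, and deviations of same-numbered libraries correlated at 0.167 between genotypes and 0.257 between states of labelled cells. With a replicate block, 2 genes (Jak2 and Stat2, higher) were called between genotypes in stimulated cells and 4 (Jak1, Stat5a and Stat5b lower, Stat2 higher) for stimulation in labelled cells. No paired analysis was possible for the other 2 contrasts because their groups share no replicate number. The shares of all tested genes called with the block, DESeq2, the 4-library fit and the 2-fold threshold are not given here. The counts of members called under them thus have no background to be read against. With each library left out in turn, 0 to 3 genes were called between genotypes in unstimulated cells, 0 to 1 in stimulated cells, 1 to 4 for stimulation in WT cells, 2 to 6 in labelled cells and 0 to 3 in the interaction. In unstimulated cells the genotype difference then ranged from -1.10 to 0.29 for Stat3, -1.41 to 0.46 for Stat5a, -0.66 to 0.81 for Stat5b, -0.12 to 0.64 for Jak1 and -0.34 to 0.085 for Jak3, which was 0.035 with equal upper quartiles. Stimulation in WT cells ranged from -0.092 to 0.067 for Stat6 and -0.13 to 0.22 for Jak3. Stat6 was 0.51 with equal totals, 0.055 with equal upper quartiles and 0.21 with quantile normalization. In labelled cells it ranged from -0.78 to 0.61 for Stat3, -1.86 to 0.0061 for Stat5a and -1.25 to 0.28 for Jak2, and Stat3 was 0.31 with equal totals and 0.32 with quantile normalization. The interaction ranged from -0.16 to 0.37 for Stat4, -0.70 to 1.17 for Stat5a, -0.96 to 0.51 for Stat5b and -0.31 to 0.44 for Jak1. With equal totals, equal upper quartiles and quantile normalization it was -0.025, -0.048 and -0.021 for Stat4 and -0.066, -0.090 and -0.012 for Jak1, and it was -0.038 for Stat5a with edgeR and with DESeq2. The cause of these changes was not tested. Lists were recomputed with each library left out only. The share of all tested genes called changed between those fits too, and it is not given beside every count of list genes.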
